A study of Caenorhabditis elegans with 18 samples.

Results

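The fatty acid desaturases fat-1 to fat-7 of Caenorhabditis elegans were followed across worms given TRF (tocotrienol-rich fraction, which holds vitamin E compounds), hydrogen peroxide, both or neither. The members were the probe sets annotated to one of these 7 gene symbols. Each gene had 1 such probe set, so 7 of the 22548 probe sets on the array (Affymetrix controls left out) are described, and all 7 were among the 13529 with enough signal to be tested. The genes are the loci Y67H2A.8 (fat-1), W02A2.1 (fat-2), W08D2.4 (fat-3), T13F2.1 (fat-4), W06D12.3 (fat-5), VZK822L.1 (fat-6) and F10D2.9 (fat-7). None of the 7 differed between any pair of groups after adjustment over all probe sets. The clearest difference was that of fat-3, whose signal was higher in both TRF groups than in control worms with no overlap between the arrays. In each of these comparisons, which share the control arrays, 0.54% of all probe sets separated in this direction. TRF+H2O2+TRF cleared control narrowly (lowest signal 2787 against a highest of 2681) and overlapped with H2O2.

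Desaturases put double bonds into fatty acid chains, and the worm, unlike mammals, makes its polyunsaturated fatty acids from saturated ones. FAT-5, FAT-6 and FAT-7 are delta-9 desaturases that make the first double bond, FAT-5 mainly on palmitic acid and FAT-6 and FAT-7 on stearic acid to give oleic acid. FAT-2 is the delta-12 desaturase that turns oleic into linoleic acid, and FAT-1 is the omega-3 desaturase. FAT-3 is the delta-6 desaturase that starts the path to longer polyunsaturated fatty acids, and FAT-4 is the delta-5 desaturase at its end, which makes arachidonic and eicosapentaenoic acid. The intestine is the main fat-storing tissue of the worm, and the sterol-response factor SBP-1, its mediator partner MDT-15 and the nuclear receptors NHR-49 and NHR-80 are known to drive the delta-9 desaturase genes.

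All worms were of the wild-type strain N2, kept at a common temperature on agar with E. coli OP50 as food, and total RNA was hybridised to 1 array per sample. The TRF+H2O2+TRF worms (n = 4) received TRF from hatching to day 3 of adulthood, before and after exposure to H2O2, whose dose the labels do not repeat for this group. The TRF worms (n = 4) were given TRF over their whole life. The H2O2 worms (n = 5) were exposed to 0.3 mM H2O2 for 2 h as L4 larvae, and the control worms (n = 5) had no treatment. The age at which TRF, H2O2 and control worms were collected is not stated. The dose of TRF and the number of worms per sample are not given in the labels, which also do not say whether replicates were separate cultures, so a p-value reflects no more than the spread among these arrays. Values are MAS5 signals, a linear brightness per probe set, whose precision is set by how few arrays each group has. Fold changes were computed from log2(signal + 1), where adding 1 changes these signals little. Each array had a mean correlation with the rest of between 0.955 and 0.971. RNA came from whole worms, so fewer cells of a type and less RNA per cell cannot be told apart.

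The comparison of TRF with untreated worms asks what TRF alone did. The delta-6 desaturase gene fat-3 had signals of 4165, 3670, 4218.5 and 3474 on the 4 TRF arrays, against 2403, 2259, 2681, 2472 and 1709 on the 5 control arrays. Every TRF array lay above every control array. The mean was 3882 ± 368 in TRF and 2305 ± 366 in control (SD, n = 4 and n = 5), a log2 fold change of 0.76 ± 0.133 (SE), or 1.70-fold with a 95% confidence interval from 1.39 to 2.08. In limma the adjusted p was 0.301 (unadjusted 9.28e-05), the third smallest p of the 13529 probe sets. The threshold was passed by 0.00739% of probe sets, that is by F42A10.7 alone, a gene outside the desaturases. The TRF and control arrays did not overlap, with TRF higher, for 0.54% of all probe sets and for 1 of the 7 desaturases, and with TRF lower for 0.643% and for 0 of the 7. fat-3 and fat-6 were the 2 members with an unadjusted limma p under 0.05, as had 3.5% of all probe sets. The series design names an unpaired test at 0.05 without adjustment. By the methods' t-test the same 2 members passed unadjusted (0.000946 for fat-3 and 0.0329 for fat-6), as did 4.15% of all probe sets, and 0.0% passed after adjustment (0.997 for both). Over the 7 members, 2 had a higher and 5 a lower mean in TRF, with a median log2 fold change of -0.06 against 0.04 over all probe sets. That fat-3 was higher in TRF in each of the 4 pairs of arrays sharing a replicate number follows from this separation and adds nothing to it.

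**Figure D1:**
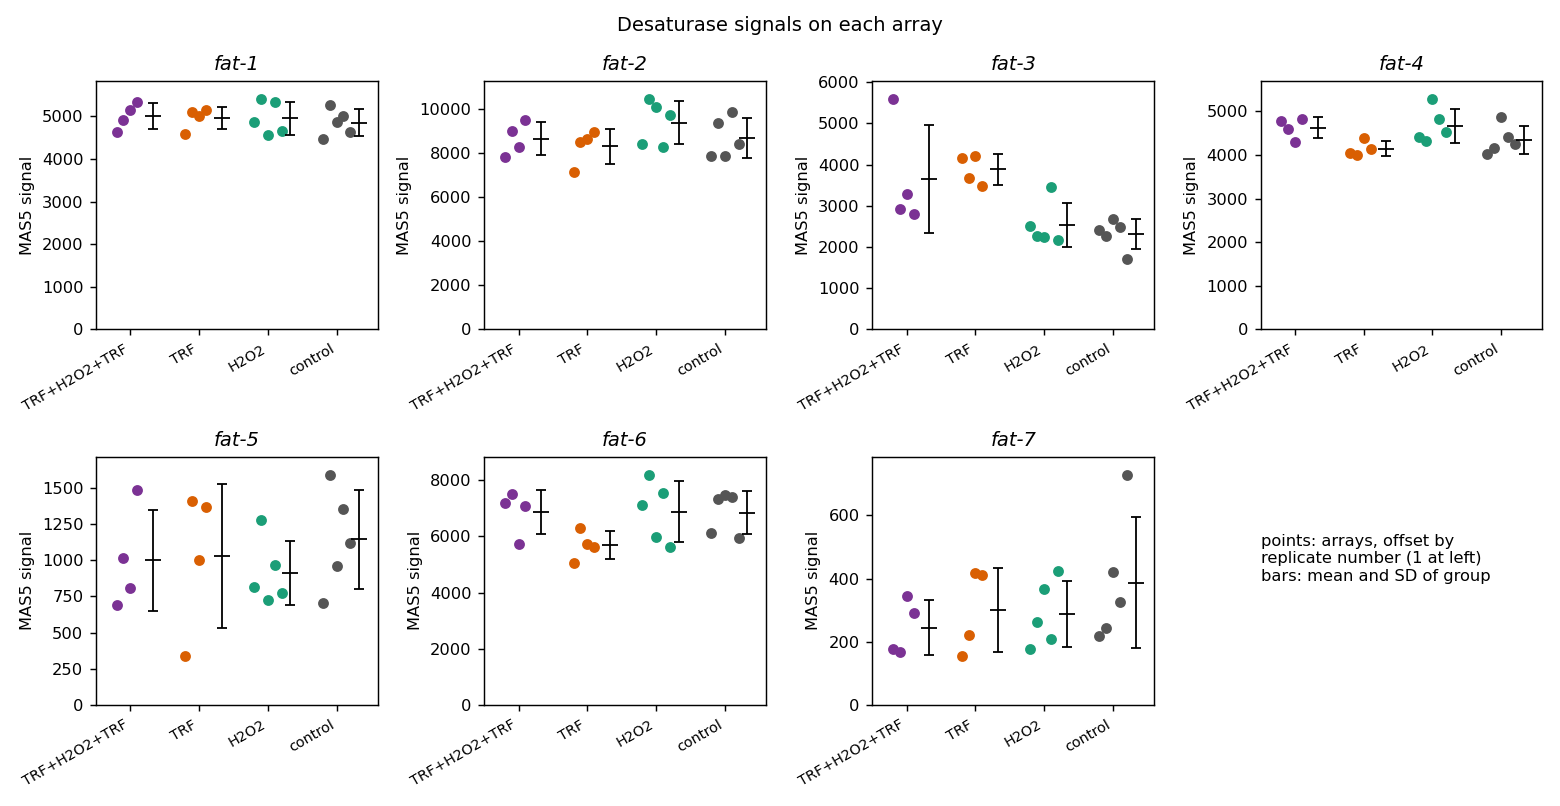
MAS5 signal of the 7 desaturase genes (1 panel each, linear axis from 0) on each of the 18 arrays, by group. Points are arrays and bars are the group mean ± SD. For fat-3 the 4 TRF arrays sit between 3474 and 4218.5, above all control arrays, while 1 TRF+H2O2+TRF array reaches 5582. The groups overlap in every panel other than fat-3 for the pairs compared.

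The comparison of TRF+H2O2+TRF with H2O2 asks what TRF did around the peroxide exposure. It uses other arrays than the comparison above but is not independent of it. Arrays of the same replicate number deviated together between TRF+H2O2+TRF and TRF (residual correlation 0.35 to 0.686). The same held between H2O2 and control (0.28 to 0.681). fat-3 signals were 5582, 2921, 3280 and 2787 in TRF+H2O2+TRF, against 2507, 2271.5, 2248, 3443 and 2168.5 in H2O2. All 4 TRF+H2O2+TRF arrays exceeded 4 of the 5 H2O2 arrays, and replicate 4 of H2O2 exceeded 3 of them. The mean was 3643 ± 1310 in TRF+H2O2+TRF (SD, n = 4) and 2528 ± 527 in H2O2 (n = 5), and the log2 fold change, 0.49 ± 0.204 (SE), did not pass (limma adjusted p = 1.0, unadjusted 0.0326). Here 0.0% of all probe sets passed after adjustment (0 of 13529 in limma and in the methods' t-test), while 2.23% and 2.71% had an unadjusted p under 0.05, among the members 1 (fat-3) and 0. Over the 7 members the median log2 fold change was 0.00, against 0.02 over all probe sets, with 4 higher and 3 lower. No member had separate ranges in these groups, against 0.362% of all probe sets with TRF+H2O2+TRF higher and 0.599% with it lower. Replicate 1 of TRF+H2O2+TRF carried much of the difference, and without it the log2 fold change was 0.26.

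Against control, fat-3 in TRF+H2O2+TRF had a log2 fold change of 0.62 ± 0.198 (SE; limma adjusted p = 1.0, unadjusted 0.00874), and 0.39 without replicate 1 of TRF+H2O2+TRF. The arrays of these groups did not overlap, the lowest being 2787 in TRF+H2O2+TRF and the highest 2681 in control, as for 0.54% of all probe sets in this direction (0.488% in the other). fat-3 was the 1 member with an unadjusted p under 0.05, in limma (2.84% of all probe sets) and by the methods' t-test (3.28%), and 0.0% of all probe sets passed after adjustment. This comparison shares its control arrays with that of TRF and control. With all 18 arrays in one fit, fat-3 averaged 0.63 ± 0.13 log2 units (SE) higher in the TRF groups than in the groups without TRF, or 1.54-fold with a 95% confidence interval from 1.28 to 1.86 (limma adjusted p = 0.388, unadjusted 0.000115). In that fit 0.0% of all probe sets passed after adjustment and 5.26% had an unadjusted p under 0.05. The interaction, which tests whether the H2O2 difference was the same with and without TRF, was -0.27 ± 0.26 for fat-3 (SE; limma adjusted p = 1.0). For this term 0.0% of all probe sets passed after adjustment, and 1.14% of them and 0 of the 7 members had an unadjusted p under 0.05. The order of the 4 group means for fat-3 was TRF, TRF+H2O2+TRF, H2O2 and control. Only the step between TRF+H2O2+TRF and H2O2 was larger than the SD of either group on the log2 scale (0.489 against a larger SD of 0.461).

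**Figure D2:**
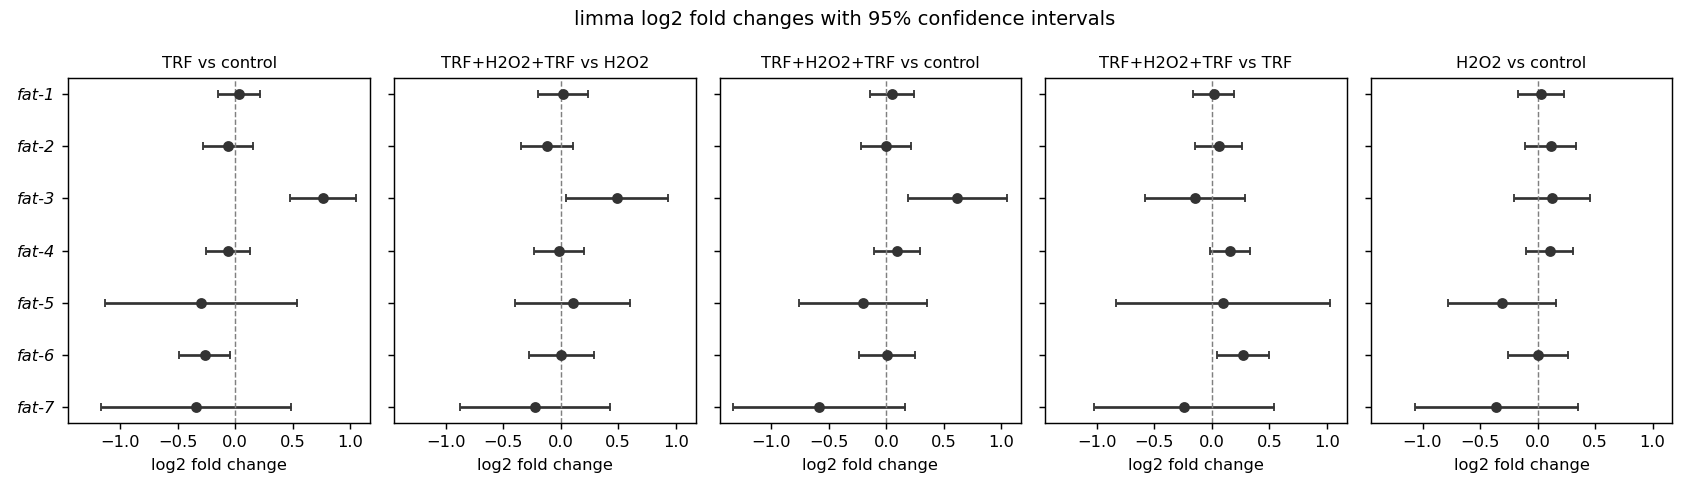
limma log2 fold changes (x axis) of the 7 desaturase genes with 95% confidence intervals in 5 comparisons of 2 groups, each as its first group over its second. The interval of fat-3 lies above 0 in TRF against control (0.47 to 1.05), in TRF+H2O2+TRF against H2O2 (0.05 to 0.93) and in TRF+H2O2+TRF against control (0.19 to 1.05). These intervals are not adjusted for the number of probe sets tested.

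In the RefSeq annotation of assembly WBcel235 fat-3 lies next to fat-4, and fat-1 next to fat-2. The neighbour fat-4, which encodes the delta-5 desaturase acting after FAT-3, had signals of 4054.5, 4009, 4394 and 4138 in TRF, against 4019.5, 4157, 4877, 4423 and 4251 in control. The ranges overlapped, with 2 control arrays above every TRF array and 1 TRF array below every control array, at a log2 fold change of -0.06 and a 95% confidence interval from -0.26 to 0.13. The log2 ratio of fat-3 to fat-4 signal ran from -0.25 to 0.04 in TRF and from -1.31 to -0.74 in control, so that fat-3 was higher relative to its neighbour on every TRF array. The ratio was looked at after the fat-3 values were seen and is given as a description. It ran from -0.79 to 0.225 in TRF+H2O2+TRF and from -1.23 to -0.49 in H2O2, so these ranges overlapped. Between TRF and control, the ratios of fat-3 to fat-1, fat-2 and fat-6 did not overlap, while those to fat-5 and fat-7 did. As fat-3 by itself separated these groups, its ratios to steadier members follow in large part from that separation. They add no evidence to it, and the share of all probe sets with separate ratios was not counted.

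The genes whose log2 signal over the 18 arrays followed fat-3 most closely were F07C3.9 (Pearson r = 0.911), clec-70, a C-type lectin gene (0.904), and ZC513.7 (0.84). They are the 3 highest among probe sets with 1 gene symbol, and 10 such probe sets had r above 0.8. F07C3.9 had signals of 577, 563, 591 and 720.5 in TRF, against 352, 276.5, 357, 391 and 287 in control. On replicate 1 of TRF+H2O2+TRF, where fat-3 was highest of all arrays, F07C3.9 had 741 and the other 3 arrays of that group 403 to 444. On replicate 4 of H2O2, where fat-3 stood above the rest of its group, F07C3.9 had 512 and the other 4 arrays 257.5 to 336. clec-70 showed the same 2 arrays high, with 195 against 57.8 to 105 in TRF+H2O2+TRF and 153 against 36.6 to 69.6 in H2O2. With the group means removed, the correlation with fat-3 was 0.802 for F07C3.9, 0.812 for clec-70 and 0.83 for ZC513.7. These genes were picked for their likeness to fat-3 on the same arrays, so the shared high arrays follow in part from that choice. These correlations are descriptions over arrays that share the groups' treatments and each array's own scaling.

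**Figure D3:**
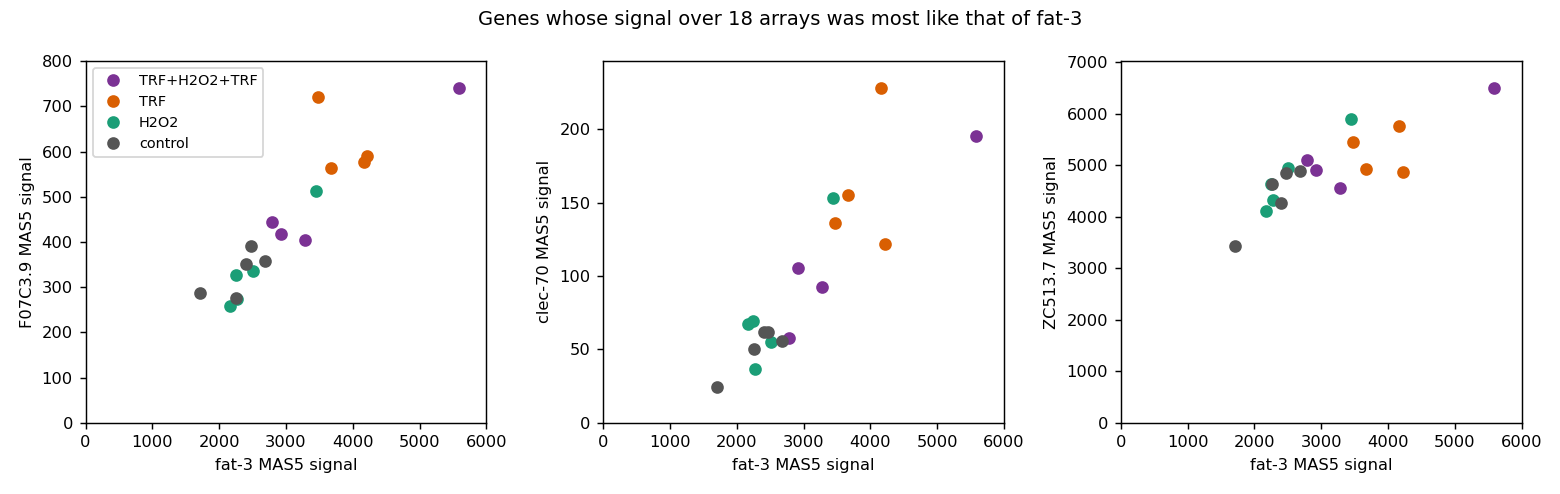
MAS5 signal of F07C3.9, clec-70 and ZC513.7 (y axes) against that of fat-3 (x axis), 1 point per array, coloured by group, with linear axes from 0. The fat-3 signal of 5582 in TRF+H2O2+TRF falls on the array with the highest F07C3.9 signal, 741. The H2O2 array at 3443 for fat-3 is the highest of its group in all 3 panels, with 512 for F07C3.9 and 153 for clec-70.

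The omega-3 desaturase gene fat-1 was the steadiest of the members. Its signals ran from 4460 to 5400 over all 18 arrays, a 1.21-fold range, with means of 5016 ± 301 in TRF+H2O2+TRF, 4960 ± 258 in TRF, 4961 ± 388 in H2O2 and 4850 ± 318 in control (SD, n = 4, 4, 5 and 5). The largest log2 fold change of fat-1 in the 5 comparisons of 2 groups was 0.05, in TRF+H2O2+TRF against control, with a 95% confidence interval from -0.15 to 0.24. The delta-12 desaturase gene fat-2 had means of 8626 ± 749 in TRF+H2O2+TRF, 8285 ± 800 in TRF, 9369 ± 984 in H2O2 and 8661 ± 901 in control. Its log2 fold change was -0.12 ± 0.104 in TRF+H2O2+TRF against H2O2 and -0.06 in TRF against control (SE), and neither passed (limma adjusted p = 1.0 and 0.995). fat-4 averaged 4627 ± 236 in TRF+H2O2+TRF, 4149 ± 172 in TRF, 4675 ± 388 in H2O2 and 4346 ± 332 in control. For these 3 genes no step between neighbouring group means exceeded the larger SD of the pair.

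The delta-9 desaturase gene fat-6 had its lowest group mean in TRF. Its signals were 5067, 6291, 5738 and 5634 in TRF, against 6106, 7318, 7460, 7423 and 5935 in control, so that all 4 TRF arrays lay below the control mean while the ranges overlapped. The mean was 5682 ± 502 in TRF and 6848 ± 760 in control (SD), a log2 fold change of -0.27 ± 0.103 (SE) or 0.832-fold, which did not pass in limma (adjusted p = 0.995, unadjusted 0.024). fat-6 signals in TRF+H2O2+TRF were 7192, 7514, 5715.5 and 7074, a mean of 6874 ± 794 against 6888 ± 1071 in H2O2. The log2 fold change of TRF+H2O2+TRF against TRF was 0.27 ± 0.103 (SE; limma adjusted p = 1.0, unadjusted 0.0243), where 0.0% of all probe sets passed. Unadjusted, fat-6 was the 1 member under 0.05 in limma without a replicate block (1.46% of all probe sets), and fat-4 (0.0164) and fat-6 (0.0472) were so by the methods' t-test (1.86%). No member had separate ranges there, against 0.532% of all probe sets higher and 0.562% lower. With the replicate number as a block, fat-6 had 0.27 ± 0.083 and fat-4 had 0.16 ± 0.07 (SE; limma adjusted p = 0.642 and 0.765). Their unadjusted limma values in that fit were 0.0108 and 0.0536, and the share of all probe sets under 0.05 in it was not counted. The comparison of TRF+H2O2+TRF with TRF shares its TRF arrays with that of TRF and control. The interaction for fat-6 was 0.27 ± 0.168 (SE; adjusted p = 1.0). The fat-6 probe set carries the suffix that Affymetrix gives to probe sets matching several transcripts, and fat-7 is a close paralog of fat-6, so a contribution of fat-7 to this signal was not tested.

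The palmitoyl-CoA desaturase gene fat-5 and the stearoyl-CoA desaturase gene fat-7 varied most among replicates. fat-5 had signals of 334.5, 1409, 1005 and 1370 in TRF, against 706, 1588, 958, 1357 and 1122 in control, with a log2 fold change of -0.30 ± 0.382 (SE). That sign came from replicate 1 of TRF, and without this array the value was 0.18. fat-5 signals in TRF+H2O2+TRF were 692, 1016, 810 and 1483, against 815, 1275, 726, 969 and 773 in H2O2 (log2 fold change 0.10, 95% confidence interval -0.40 to 0.60). fat-7 had 154, 221, 418 and 410 in TRF, against 217, 243, 422, 326 and 728 in control (log2 fold change -0.34, interval -1.17 to 0.48). This value was -0.08 without replicate 5 of control and -0.06 without replicate 1 of TRF. fat-7 signals in TRF+H2O2+TRF were 178, 166, 344 and 291, against 178, 264, 368, 208 and 423 in H2O2 (-0.23, interval -0.88 to 0.43), and without replicate 5 of H2O2 the value was -0.07. In TRF against control the 95% confidence interval of the fold ran from 0.457 to 1.45 for fat-5 and from 0.445 to 1.4 for fat-7, so neither direction could be told apart from no difference with this spread.

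The comparison of H2O2 with control asks what the peroxide exposure did. None of the 7 genes passed in limma without a replicate block, at the adjusted threshold (0.0% of all probe sets) or at an unadjusted p under 0.05 (2.34% of all probe sets), nor by the methods' t-test unadjusted (2.96%). No member had separate ranges, against 0.259% of all probe sets with H2O2 higher and 0.214% lower. fat-1, fat-2, fat-3, fat-4 and fat-6 had log2 fold changes from 0.00 to 0.13, and fat-5 and fat-7 had -0.31 ± 0.218 and -0.36 ± 0.33 (SE). Without replicate 5 of control the fat-7 value was -0.09, and without replicate 2 of control the fat-5 value was -0.175. The median over the 7 was 0.03, against -0.002 over all probe sets tested. H2O2 and control arrays of the same replicate number deviated together. Within these pairs fat-4 was higher in H2O2 in 5 of 5, and fat-1, fat-2 and fat-3 in 4 of 5 each. fat-6 was so in 3 of 5, and fat-5 and fat-7 in 1 of 5 each. The share of all probe sets with such counts was not taken. For fat-4 the fit with the number as a block gave 0.105 ± 0.063 (SE; limma adjusted p = 0.669, unadjusted 0.124). With the number as a block the changes of fat-5 and fat-7 were -0.31 ± 0.119 and -0.36 ± 0.148 (SE; limma adjusted p = 0.449 and 0.484). In that fit fat-5 and fat-7 had unadjusted values of 0.0259 and 0.0341, so 2 of the 7 members were under 0.05 unadjusted, against 9.51% of all probe sets, and 0 after adjustment, against 0.0% of all probe sets. Body wall muscle markers were higher in H2O2 for 8 of 8 genes (median log2 fold change 0.40, 6 with an unadjusted p under 0.05, 0 after adjustment), and the list mean ran from 11.39 to 11.92 log2 units in H2O2 and from 10.93 to 11.53 in control. Its part in the fat-5 and fat-7 values was not tested.

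The replicate number held more of the variation of fat-7, fat-5, fat-1 and fat-2 than the group did. Over the 16 arrays numbered 1 to 4, the number held 74.9% of the sum of squares of log2 signal for fat-7, 67.7% for fat-5 and 63.8% for fat-1, and the group 7.2%, 4.0% and 3.1%. For fat-2 the number held 45.4% and the group 15.7%. Averaged over all tested probe sets, the number held 35.6% and the group 17.5%. fat-3 had the opposite split, with 56.4% between groups and 10.2% between numbers, and fat-6 and fat-4 had 48.9% and 39.3% between groups. The share of fat-3 between groups was larger than that of 99.2% of probe sets, and the share of fat-7 between numbers larger than that of 98.4%. These shares are descriptions, with no test. Noise alone gives some share to the groups and to the numbers, and that part was not taken off. A share between groups is therefore not the size of a treatment difference. fat-7 signals ran from 154 to 217 on the 4 arrays numbered 1 and from 344 to 422 on the 4 numbered 3, and were 423 and 728 on the 2 numbered 5. fat-5 ran from 334.5 to 815 on the arrays numbered 1 and from 1016 to 1588 on those numbered 2. What the numbers mark is not stated in the labels.

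**Figure D4:**
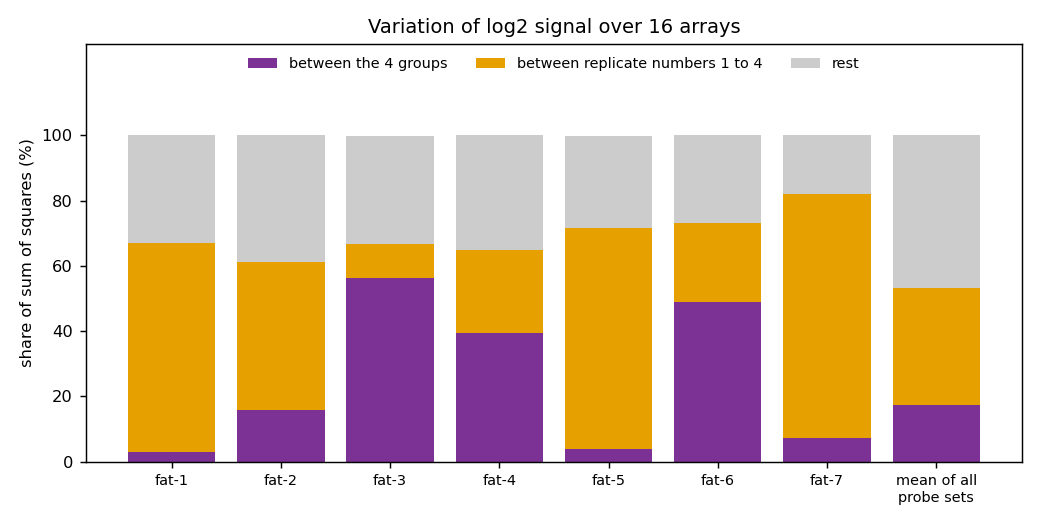
Share (%) of the sum of squares of log2 signal that lay between the 4 groups, between the replicate numbers 1 to 4 and in the rest, for the 7 desaturase genes and as the mean over all tested probe sets, over 16 arrays. The purple share between groups is largest for fat-3 (56.4%), and the orange share between numbers is largest for fat-7 (74.9%).

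**Figure D5:**
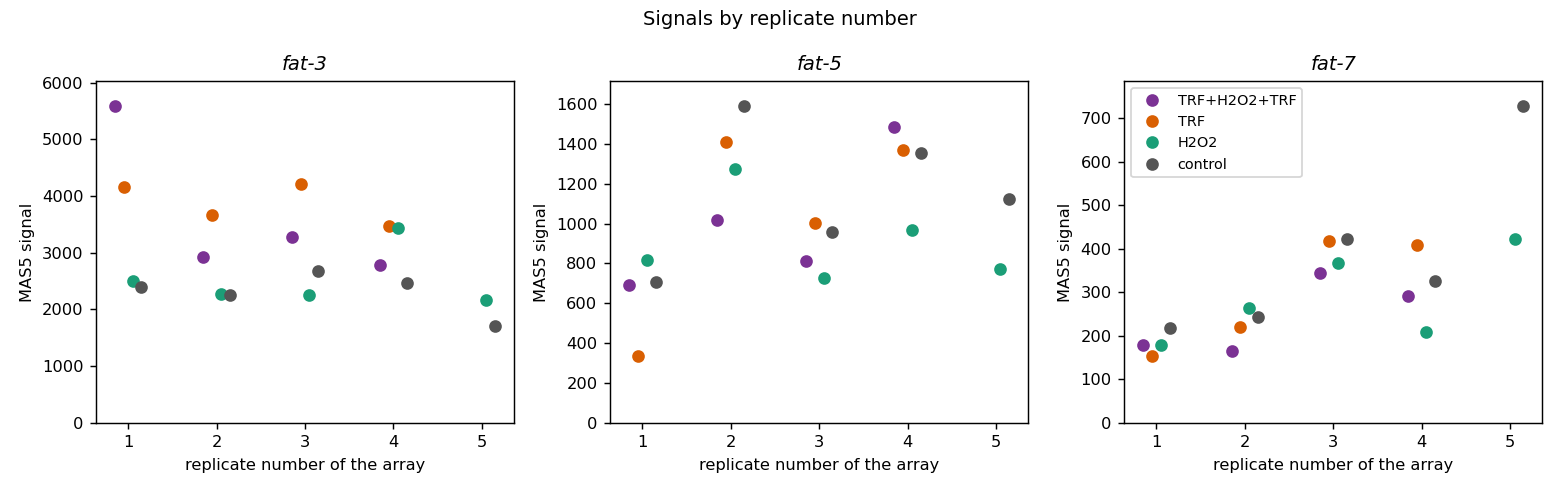
MAS5 signal (y axis, linear from 0) of fat-3, fat-5 and fat-7 by replicate number (x axis), with points coloured by group and offset within a number. fat-7 lies between 154 and 217 on all arrays numbered 1 and between 344 and 422 on all numbered 3, whereas fat-3 separates by colour in numbers 1, 2 and 3.

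Tissue marker levels also moved with the replicate number, and their part in these patterns was not tested. The number held 61.6% of the sum of squares of the body wall muscle list mean, 60.6% of that of hypodermis, 55.9% of intestine, 49.9% of sperm, 47.0% of oocyte and eggshell, and 39.1% of embryo. With group means removed, fat-7 had r = -0.65 with the muscle list mean over 18 arrays, and fat-6 had r = -0.613 with the oocyte and eggshell list mean. fat-3 had r = -0.436 with the oocyte list and 0.414 with the intestine list. The intestine list mean, over 13 of 13 measured markers, ran from 10.4 to 10.61 log2 units in TRF+H2O2+TRF, 10.38 to 10.59 in TRF, 10.23 to 10.95 in H2O2 and 10.33 to 10.74 in control, so the groups overlapped. The hypodermis list (6 of 7 measured markers tested) ran from 8.73 to 8.93, 8.77 to 9.04, 8.42 to 9.19 and 8.35 to 9.24 in the same groups. The sperm list (7 of 12) ran from 6.53 to 8.51, 6.03 to 9.11, 6.56 to 8.73 and 6.56 to 8.99, and the embryo list (7 of 7) lay between 6.05 and 6.76 on all arrays. The oocyte list (10 of 10) lay between 12.42 and 13.05 on all arrays, and the muscle list (8 of 8) between 10.9 and 11.92. No marker list mean separated the TRF arrays from the control arrays. Muscle markers had a higher mean in TRF+H2O2+TRF for 8 of 8 genes against control (median log2 fold change 0.36) and for 8 of 8 against TRF (0.30). Oocyte markers had a lower mean in TRF+H2O2+TRF for 10 of 10 genes against H2O2 (-0.155), and intestine markers for 11 of 13 (-0.15). None of these markers passed after adjustment, and their part in the fat-3 and fat-6 values was not tested.

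The members did not move as one set. fat-1 and fat-5 correlated most closely over the 18 arrays (r = 0.7, and 0.779 with group means removed), followed by fat-2 and fat-5 (0.595 and 0.718). fat-3 correlated negatively with fat-2 (-0.526) and fat-7 (-0.463) and its r with its neighbour fat-4 was -0.025, or 0.251 with group means removed. The paralogs fat-6 and fat-7 had r = -0.291. The gene most like fat-2 was aldo-2 (r = 0.846), a fructose-bisphosphate aldolase gene, followed by let-767 (0.836), which encodes a reductase of fatty acid elongation, and Y57G11B.5 (0.834). lro-1 was the most like fat-5 (0.852) and the second most like fat-1 (0.76), where H28G03.5 (0.765) and nex-1 (0.757), an annexin gene, stood beside it. Y69H2.9 (0.815) and xbx-6 (0.8) came next for fat-5. The closest to fat-4 were F10E7.2 (0.742), ddo-3 (0.728) and C04E6.8 (0.727), and to fat-6 clec-178 (0.808), C47E12.3 (0.757) and chil-24 (0.754). For fat-7 they were pfkb-1.2 (0.834), hrpa-1 (0.832) and rsp-7 (0.816).

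The enzymes that build and lengthen the chains on which the desaturases act did not pass in any comparison. Of 14 tested synthesis and elongation genes, 11 had a lower and 3 a higher mean in TRF than in control (median log2 fold change -0.09, against 0.04 over all probe sets), with the elongase genes elo-3 at -0.54 ± 0.267 and elo-5 at -0.34 ± 0.176 (SE; limma adjusted p = 0.995 for both). For TRF+H2O2+TRF against H2O2, 12 were lower and 2 higher (median -0.12, against 0.02), with elo-1 at -0.19 and elo-2 at -0.31. In H2O2 against control 12 were higher and 2 lower (median 0.06, against -0.002), with elo-9 at 0.27 and fasn-1, the fatty acid synthase gene, at -0.24. In none of these 3 comparisons did a gene of this list have an unadjusted p under 0.05. In the average TRF difference over all 18 arrays 2 did, elo-2 at -0.355 ± 0.158 (unadjusted 0.0361) and elo-5 at -0.27 ± 0.125 (0.045; SE, limma adjusted p = 0.867 for both). In that fit 5.26% of all probe sets had an unadjusted p under 0.05. The comparisons share control or H2O2 arrays in part, and 0 of the 14 genes passed after adjustment.

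Genes that regulate the desaturases did not pass in any comparison either. Of 13 tested regulators, 11 had a higher mean in TRF than in control (median 0.14) and 10 did so in TRF+H2O2+TRF over H2O2 (0.14 as the median), against 6 in H2O2 over control (median -0.001). The medians over all probe sets were 0.04, 0.02 and -0.002 in these comparisons. The SREBP gene sbp-1 had log2 fold changes of 0.21 ± 0.165 in TRF and 0.17 in H2O2 against control (SE), and 0.00 in TRF+H2O2+TRF against H2O2. mdt-15 had 0.32, 0.25 and -0.02 in the same order, nhr-49 had 0.10, -0.17 and 0.23, and nhr-80 had 0.19, 0.19 and 0.15. scp-1, which encodes the partner that activates SBP-1, had 0.33 in TRF against control. hlh-30, the gene of the TFEB-like factor of lysosome and lipid stores, had 0.61 ± 0.246 in TRF+H2O2+TRF against H2O2 (SE; limma adjusted p = 1.0, unadjusted 0.0286) and -0.27 in H2O2 against control. In TRF+H2O2+TRF against H2O2, 2.23% of all probe sets had an unadjusted limma p under 0.05.

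Of the 3 genes of electron donors to the desaturases, the cytochrome b5 gene cytb-5.1 had a log2 fold change of -0.13 in H2O2 against control, cytb-5.2 had 0.15 in TRF against control and hpo-19 had -0.14 there. All 3 had a higher mean in TRF+H2O2+TRF over H2O2, with a median of 0.12 against 0.02 over all probe sets, and 0 passed. Of 12 tested genes of phospholipid methylation and assembly, 10 had a higher mean in TRF+H2O2+TRF over H2O2 (median 0.12, against 0.02 over all probe sets). Among them, the acyltransferase genes mboa-6 and mboa-7 had 0.32 and 0.29. In TRF against control 6 of the 12 were higher (median 0.00, against 0.04), with pmt-2 at -0.22 and dgat-2 at -0.26. Of the 9 tested genes of fatty acid breakdown under NHR-49, 6 had a higher mean in TRF than in control (median 0.24, against 0.04 over all probe sets). acs-2, an acyl-CoA synthetase gene of mitochondrial beta-oxidation, had 0.86 ± 0.318 in TRF against control (SE; limma adjusted p = 0.995, unadjusted 0.0193) and 0.64 ± 0.391 in TRF+H2O2+TRF against H2O2 (adjusted p = 1.0). In TRF against control, 3.5% of all probe sets had an unadjusted limma p under 0.05. The carnitine palmitoyltransferase gene cpt-2 had 0.22 in TRF against control.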

How the data were processed

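Total RNA of 18 worm samples was measured on 1 Affymetrix array each, with groups and replicate numbers from the sample titles. The deposited values are MAS5 intensity values, that is, linear signals of 22625 probe sets. Per the submitters' processing notes, MAS5 and the Affymetrix Expression Console made them, with versions and genome build not given in the sources used here. The mean without the top and bottom 2% was 500.11 to 500.14 on every array, a shared scaling. The 77 control probe sets were left out. From log2(signal + 1), the 13529 probe sets in the upper part by mean (from the 40th percentile, geometric mean signal 47.0) were tested. Of these, 12848 had 1 symbol in the array's gene table, 442 several and 239 none here.

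Tests were made with limma 3.58.1 under R 4.3.3 (functions lmFit and eBayes, variance trend on, 2-sided, arrays of the compared groups only, Benjamini-Hochberg adjusted p under 0.05 over all probe sets). The average TRF difference and the interaction used all arrays. Fold changes are the first group minus the second. The fit was also run on simulated data with noise drawn independently for each array. Those data lacked the shared deviation of arrays with equal numbers, so that run does not show how the fit behaves with it.

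The members and lists were chosen with earlier results of these data known. Besides the 7 members, the text names in each list the members past the threshold or else up to 2 with the smallest p, the 4 regulators sbp-1, mdt-15, nhr-49 and nhr-80, and the 3 genes most like each member by Pearson r over the 18 arrays. F42A10.7, C30E1.9, T22F3.11 and the genes of 1 shared probe set were named after their values were seen. From these lists, elo-8, col-10, med-2, ssp-9, ssp-11 and msp-10 had no probe set of their own here. Where a list gene had several probe sets (3 for hlh-30, 2 for acs-2), only the one with the highest mean signal was used. The values of the others are not given.

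Replicate numbers pair the arrays of H2O2 and control (residual correlation of equal numbers 0.28 to 0.681, best match in 5 of 5) and of TRF+H2O2+TRF and TRF (0.35 to 0.686, 4 of 4), by the data and not by the labels. Alternatives covered the filter, normalization between arrays, a pseudocount of 16, the variance model, array weights, the replicate block, the methods' t-test (unpaired, equal variance), the arrays numbered 5, which have later accessions, and each array left out.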

Additional observations from a re-analysis of the deposited data

Results flagged for a closer look

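The fat-3 signal of 3442.9 on replicate 4 of H2O2 stood apart from the other 4 arrays of its group, which ran from 2168.5 to 2507. The gap to the nearest array, as a share of the group's range, exceeded Dixon's 95% critical value on the signal scale but not on the log2 scale. Chance alone marks about 1 in 20 groups, and 28 groups of arrays were examined. Without this array the log2 fold change of fat-3 was 0.61 in TRF+H2O2+TRF against H2O2 and 0.01 in H2O2 against control.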

How the results depend on the processing

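0 of the 7 desaturases passed in any of the 7 comparisons under any alternative that was run, and fat-3 kept its sign throughout. Its log2 fold change ran from 0.66 to 0.82 in TRF against control (adjusted p 0.14 to 1.0), from 0.26 to 0.61 in TRF+H2O2+TRF against H2O2 and from 0.51 to 0.69 for the average TRF difference. That of fat-6 in TRF against control ran from -0.33 to -0.21. Over all probe sets, the methods' t-test called 0 in TRF against control in place of 1. With arrays left out in turn, that count ran from 1 to 2 (the second, without TRF replicate 2, is a probe set of dod-21 and cld-1), the count in TRF+H2O2+TRF against control from 0 to 1 (T22F3.11 without control replicate 4, F42A10.7 without TRF+H2O2+TRF replicate 4) and the count for the average TRF difference from 0 to 1 (F42A10.7 without TRF+H2O2+TRF replicate 4).

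With the replicate block, 1 probe set (C30E1.9) passed in TRF+H2O2+TRF against TRF in place of 0. The block changed no call of a desaturase, but fat-1 and fat-6 turned to -0.0051 and -0.067 in TRF+H2O2+TRF against H2O2, and fat-6 to -0.045 in TRF+H2O2+TRF against control. In those comparisons, and in TRF against control, an array's best match had its own number in 2, 3 and 3 of 4 cases, with residual correlations from 0.022 to 0.327, from -0.147 to 0.494 and from -0.224 to 0.541, so the arrays may share only a number. In all, 68 of 1036 single-gene values changed sign, all from values that had not passed, and the cause was not tested. Quantile normalization turned fat-1 (-0.0053) and fat-6 (-0.064) in H2O2 against control, fat-2 (0.00037) and fat-4 (0.036) in TRF+H2O2+TRF against H2O2, fat-2 (0.033) in TRF+H2O2+TRF against control, fat-4 (0.0069) in the average TRF difference, and fat-1 (0.010) and fat-2 (0.020) in the interaction. Median centring turned fat-1 in TRF against control (-0.031), in TRF+H2O2+TRF against H2O2 (-0.056) and control (-0.00055) and in the average TRF difference (-0.044), and fat-6 in TRF+H2O2+TRF against H2O2 (-0.070) and control (-0.045). Array weights turned fat-6 in H2O2 against control (-0.016), fat-2 in TRF+H2O2+TRF against control (0.0064) and fat-7 in the interaction (-0.12).

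The fat-7 value kept its sign but ran from -0.54 to -0.062 in TRF against control, from -0.41 to -0.065 in TRF+H2O2+TRF against H2O2, from -0.77 to -0.32 in TRF+H2O2+TRF against control and from -0.53 to -0.095 in H2O2 against control as arrays were left out. With arrays left out, the following values crossed 0. In H2O2 against control, fat-6 ran from -0.064 to 0.072. In TRF against control, fat-2 ran from -0.10 to 0.0080 and fat-5 from -0.51 to 0.18. In TRF+H2O2+TRF against H2O2, fat-1 ran from -0.013 to 0.054, fat-4 from -0.040 to 0.032, fat-5 from -0.11 to 0.26 and fat-6 from -0.067 to 0.090. In TRF+H2O2+TRF against control, fat-2 ran from -0.051 to 0.044 and fat-6 from -0.045 to 0.091. In TRF+H2O2+TRF against TRF, fat-1 ran from -0.022 to 0.052, fat-2 from -0.012 to 0.11 and fat-5 from -0.38 to 0.31. In the average TRF difference, fat-5 ran from -0.21 to 0.14. In the interaction, fat-1 ran from -0.053 to 0.020, fat-5 from -0.073 to 0.62 and fat-7 from -0.17 to 0.31.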
